A study of Mus musculus with 9 samples.

Results

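The glycolysis, lactate and pyruvate genes were a set of 33 genes chosen by name, from the glucose transporters through the enzymes of glycolysis to the lactate carriers and the enzymes that admit pyruvate to the mitochondrion. Of these, 32 were measured on the arrays and all 32 passed the filter on dim probes, among 20898 genes tested in all. Of the 20898, 16494 were named by a gene symbol, and the others are counted as genes too. Gapdh was not analysed here. RNA came from the lumbar L3 and L4 dorsal root ganglia (DRG) of adult mice, the ganglia that hold the cell bodies of sensory neurons whose axons run in the sciatic nerve. The injured group comprised 5 arrays of ganglia taken 3 days after the sciatic nerve was transected, and the uninjured group comprised 4 arrays of ganglia with an intact nerve. All 9 samples were labelled cre.neg and jun.wt, so the animals of both groups carried no Cre and a wild-type Jun gene. The labels and methods give the interval as 3 days, whereas another passage of the study names a shorter one. The methods name L3 and L4 ganglia for the arrays, whereas other passages name L4 alone. The labels do not say how many animals gave each sample or whether uninjured ganglia came from the other side of injured mice, so the p-values measure the spread between these samples, which may be technical.

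On each array DRG RNA labelled with Cy5 was hybridised together with a universal mouse reference RNA labelled with Cy3, in the same dye orientation throughout. All levels are log2 ratios of DRG over reference, so that a negative level means less signal in the ganglion than in the reference pool, and a difference of 1 between groups is a doubling. The arrays' median Cy5 intensity was 200 to 231 in the uninjured group and 156 to 238 in the injured group, and their number limits the precision. The probes used for the 32 genes were above background on all 9 arrays. Markers of injured sensory neurons, among them Atf3 and Sprr1a, rose in 8 of 8 cases, beside 11.4% of all genes. All 13 markers of sensory neurons were above background on every array. Of these 13, Isl1 and Scn11a fell, by 0.49 and 0.45, a share of 15.4% beside 14% of all genes. Of 8 satellite glia markers, Glul and Slc1a3 rose, by 0.78 and 0.22, a share of 25% beside 11.4% of all genes. The mean of 5 red blood cell markers, relative to the uninjured mean, was 1.64 on injured 2 and between -0.23 and 0.91 on the other arrays, with none called. Mean levels of 14 skeletal muscle markers, relative to the uninjured mean, were 1.70 in injured array 2 and 3.06 in injured array 4 and lay between -0.12 and 0.30 on the 7 other arrays. The 9 arrays lay on 3 slides: uninjured 2, 3 and 4 shared the first, uninjured 1 and injured 1, 2 and 5 the second, and injured 3 and 4 the third.

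Glycolysis splits glucose into pyruvate in the cytosol. Its pace is set largely by glucose uptake, by hexokinase, which traps glucose as its phosphate, and by phosphofructokinase, which the small molecule fructose 2,6-bisphosphate stimulates. Pyruvate is then either reduced to lactate, which leaves the cell with a proton through monocarboxylate transporters, or is oxidised in mitochondria after the pyruvate dehydrogenase complex, which the pyruvate dehydrogenase kinases switch off. In peripheral ganglia, neurons and the glia around them both express this pathway, and glia are known to pass lactate to neurons and axons.

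After transection, the rises that passed the test lay at glucose uptake and lactate transport and also at steps between them. Most genes of the set, like most of all genes, did not pass. In limma's fit across all genes, with p-values adjusted by the Benjamini-Hochberg method over the 20898 genes and a threshold of 0.05, 8 of the 32 genes were higher in injured ganglia: Slc2a1, Slc2a3, Hk2, Pfkfb3, Pfkfb4, Pgk1, Slc16a1 and Slc16a3. That is 25% of the set, beside 11.4% of all genes tested. Pfkm, Pdk1 and Pdhb were lower, 9.38% of the set beside 14% of all genes, and 21 genes were not called. The calls in either direction made up 34.4% of the set and 25.4% of all genes. Only Slc2a1 and Pfkfb4 were called with more than a 2-fold rise, which 1.29% of all genes showed. Injured and uninjured arrays did not overlap for 13 of the 32 genes, beside 23.9% of all genes. The median log2 difference over the set was 0.05, beside 0.00 over all genes. In whole ganglia, fewer cells of a type and less RNA per cell cannot be told apart.

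**Figure D1:**
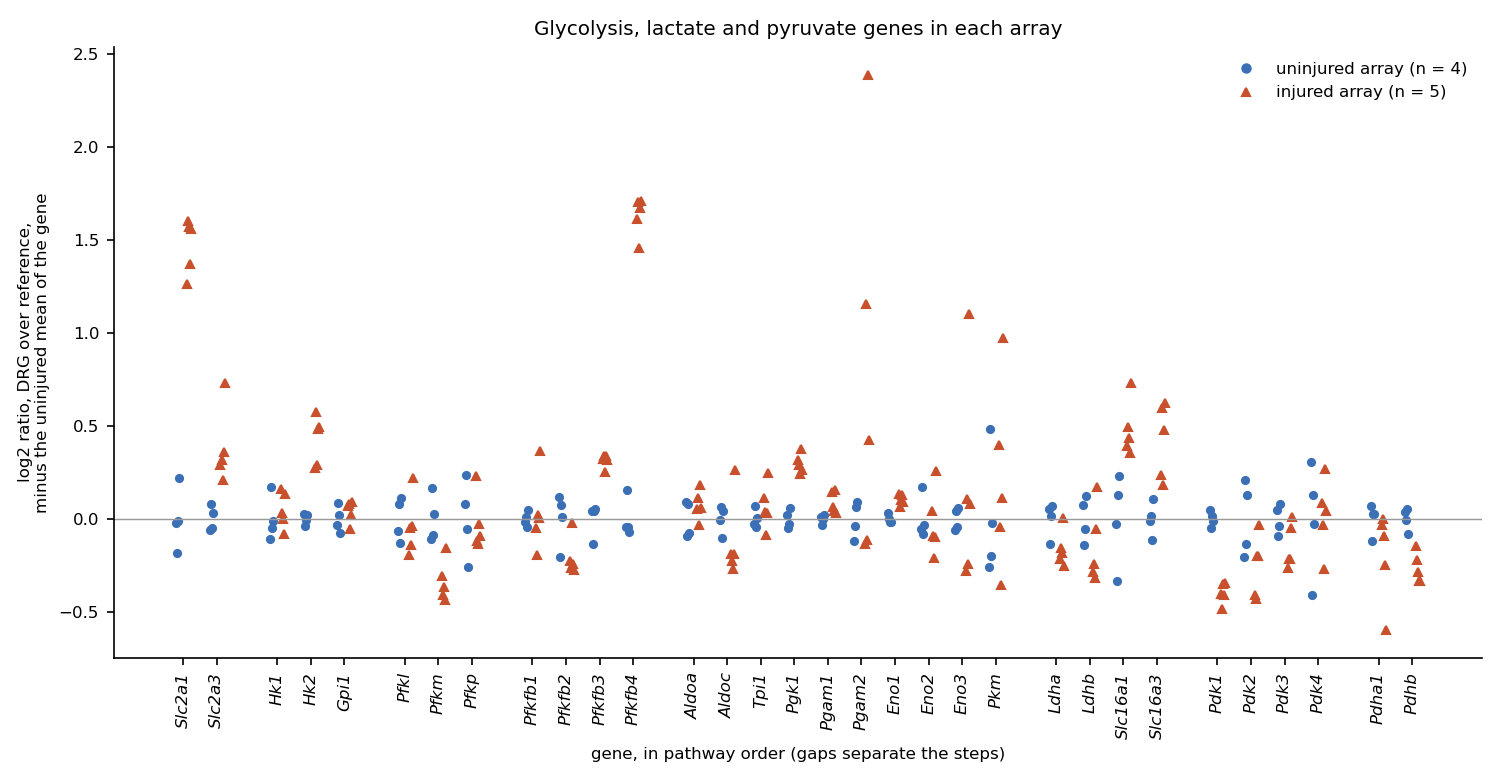
Log2 ratio of each of the 32 genes (DRG over reference) minus the mean of its 4 uninjured arrays, with genes in pathway order on the horizontal axis. Each circle is an uninjured array and each triangle an injured array. Injured arrays of Slc2a1 and Pfkfb4 stand more than 1 log2 unit above the uninjured arrays, Pgam2 and Eno3 are spread widely among injured arrays, and the arrays of both groups mingle for most of the other genes.

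Because several of these genes moved in the same direction, their promoters are shown for the 250 bases before the transcription start. RefSeq promoter entries (GRCm38.p6) were matched by symbol for 31 of the 32 genes. The windows were searched on both strands for ACGTG, for the AP-1 motif TGANTCA and for TGATGNAA, a motif of the ATF4 type. ACGTG is 1 form of the core of the element bound by hypoxia-inducible factors and also part of the E-box CACGTG. The other form of that core, GCGTG, was not searched for, so the counts cover ACGTG alone. ACGTG was present in a window of 6 of the 7 raised genes with an entry, of 2 of the 3 lowered genes and of 7 of the 21 genes not called, and in 18.5% of the 27025 genes in the table. Some genes have several start sites and so several windows, which raises their chance of a match, and the motif holds a CG pair and so falls more often in CG-rich windows. TGANTCA was found in 1 of the 31 genes, Aldoa, and in 7.82% of all genes, and TGATGNAA in none of the 31 and in 3.91% of all genes. The windows shown belong to 5 raised genes with a single entry each. Of these, 4 hold ACGTG, and Slc16a1 (1 match, 194 bases before the start) is left out for brevity. The other is Pfkfb4, which had the largest rise in the set and holds none of the motifs searched. Its window does hold GCGTG. Slc2a1 lies at chr4:119108495-119108744 (plus strand), Hk2 at chr6:82774455-82774704 (minus strand), Pgk1 at chrX:106186850-106187099 (plus strand), Slc16a3 at chr11:120948817-120949066 (plus strand) and Pfkfb4 at chr9:108991652-108991901 (plus strand). Each is written 5′ to 3′ along the gene's own strand, and capitals mark ACGTG on either strand (CACGT where it reads on the opposite one).
Slc2a1: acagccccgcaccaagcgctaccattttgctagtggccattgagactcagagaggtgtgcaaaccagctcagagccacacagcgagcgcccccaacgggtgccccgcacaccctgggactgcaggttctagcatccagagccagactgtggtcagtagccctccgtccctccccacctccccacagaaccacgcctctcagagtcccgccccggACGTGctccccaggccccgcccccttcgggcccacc
Hk2: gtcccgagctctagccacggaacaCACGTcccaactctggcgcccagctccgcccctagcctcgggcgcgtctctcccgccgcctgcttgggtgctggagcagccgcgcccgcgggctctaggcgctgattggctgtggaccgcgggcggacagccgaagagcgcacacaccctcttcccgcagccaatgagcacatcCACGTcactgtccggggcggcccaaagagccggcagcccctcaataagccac
Pgk1: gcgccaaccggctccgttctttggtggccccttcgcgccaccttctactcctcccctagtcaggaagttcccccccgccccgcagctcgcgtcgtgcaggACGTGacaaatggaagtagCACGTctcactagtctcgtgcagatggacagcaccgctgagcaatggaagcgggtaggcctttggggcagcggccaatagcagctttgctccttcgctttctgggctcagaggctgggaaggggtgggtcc
Slc16a3: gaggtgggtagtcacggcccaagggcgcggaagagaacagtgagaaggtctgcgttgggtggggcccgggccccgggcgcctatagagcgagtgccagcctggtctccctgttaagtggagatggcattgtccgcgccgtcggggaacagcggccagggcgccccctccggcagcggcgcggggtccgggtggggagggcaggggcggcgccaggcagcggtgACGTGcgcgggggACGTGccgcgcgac
Pfkfb4: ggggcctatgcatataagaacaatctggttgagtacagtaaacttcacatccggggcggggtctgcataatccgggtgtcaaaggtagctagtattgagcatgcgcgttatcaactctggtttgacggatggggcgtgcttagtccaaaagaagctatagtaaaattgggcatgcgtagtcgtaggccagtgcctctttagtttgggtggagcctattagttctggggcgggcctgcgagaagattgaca
The match nearest the start lay 31 bases before it in Slc2a1, 47 in Hk2, 126 in Pgk1 and 9 in Slc16a3. These matches describe letters in a window, and no binding was measured.

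Both glucose transporters of the set rose. Slc2a1 encodes GLUT1, the facilitative carrier of glia, endothelium and many other cells. Its log2 ratio was -1.92, -2.08, -1.91 and -1.68 on uninjured arrays 1 to 4 and -0.63, -0.29, -0.33, -0.53 and -0.34 on injured arrays 1 to 5. All injured arrays lay far above all uninjured arrays. The difference was 1.47 (SE 0.098), a 2.77-fold rise, with limma's adjusted p = 3.6e-06. Slc2a3 encodes GLUT3, the high-affinity carrier typical of neurons. It measured 1.70, 1.83, 1.71 and 1.79 on uninjured arrays and 2.05, 2.07, 1.97, 2.12 and 2.49 on injured arrays, again without overlap, with injured 5 well above the other injured arrays. The rise was smaller, 0.38 (SE 0.098, 1.30-fold; limma's adjusted p = 0.017), and without uninjured 1 it was 0.36 with an adjusted p of 0.051. Within each array, the Slc2a1 ratio minus the Slc2a3 ratio rose by 1.09 from uninjured to injured ganglia, with all 5 injured arrays above all 4 uninjured arrays (exact two-sided permutation p = 0.0079, the smallest that 126 splits allow; adjusted p = 0.053 over 10 pairs of family members).

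Of the hexokinase and isomerase step, Hk2 alone was called. Hk2 is the inducible, insulin-responsive hexokinase of muscle, fat and activated immune cells. It measured -3.20, -3.26, -3.23 and -3.20 on uninjured arrays and -2.95, -2.65, -2.93, -2.74 and -2.73 on injured arrays. The uninjured arrays were nearly equal, and every injured array was higher. The difference was 0.42 (SE 0.073, 1.34-fold), with limma's adjusted p = 0.0019. Hk1, the constitutive hexokinase of brain and nerve, differed by 0.05 (SE 0.076; adjusted p = 0.69), with overlapping arrays between 0.81 and 1.09. Gpi1, which turns glucose 6-phosphate into fructose 6-phosphate, differed by 0.04 (SE 0.058; adjusted p = 0.65). The Hk2 ratio minus the Hk1 ratio rose by 0.37 (exact permutation p = 0.024; adjusted p = 0.060 over the 10 pairs).

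The enzymes that make and break fructose 2,6-bisphosphate held the largest rise of the set. Pfkfb4 is a bifunctional kinase and phosphatase of this kind that responds to hypoxia in many tissues. It measured 1.15, 1.35, 1.15 and 1.12 on uninjured arrays and 2.80, 2.90, 2.65, 2.86 and 2.90 on injured arrays. The injured arrays stood far above the uninjured arrays, which were close together apart from uninjured 2. The difference was 1.63 (SE 0.073), a 3.09-fold rise, with limma's adjusted p = 2.5e-07. Pfkfb3, the isoform in which kinase activity strongly prevails, measured 2.10, 1.92, 2.09 and 2.10 on uninjured arrays and 2.37, 2.39, 2.30, 2.39 and 2.37 on injured arrays. Every injured array was higher and the injured arrays were close together, with a difference of 0.31 (SE 0.058, 1.24-fold; limma's adjusted p = 0.0030). Pfkfb3's 2 dimmer probes differed by 0.20 and 0.16 and were not called. Pfkfb2, the isoform known from heart, moved by -0.21 (SE 0.081; adjusted p = 0.092) and Pfkfb1, known from liver and muscle, by 0.03 (SE 0.098; adjusted p = 0.87). The Pfkfb3 ratio minus the Pfkfb2 ratio rose by 0.52, with all injured arrays above all uninjured arrays (exact permutation p = 0.016; adjusted p = 0.053).

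Phosphofructokinase itself, the enzyme those regulators act on, was not called higher in any of its 3 subunits. The muscle-type subunit gene Pfkm measured 1.04, 1.32, 1.06 and 1.17 on uninjured arrays and 0.84, 0.74, 0.78, 0.71 and 0.99 on injured arrays. Injured 5 came close to the lowest uninjured array but the groups did not overlap. Pfkm fell by 0.33 on the log2 scale (SE 0.079), to 79.3% of the uninjured level, with limma's adjusted p = 0.011. Pfkl, the liver-type subunit, differed by -0.04 (SE 0.090; adjusted p = 0.79) and Pfkp, the platelet-type subunit, by -0.03 (SE 0.107; adjusted p = 0.88). Pfkp's 3 probes gave -0.03, -0.14 and 0.17, none of them called. The Pfkl ratio minus the Pfkm ratio rose by 0.29 (exact permutation p = 0.016; adjusted p = 0.053) and the Pfkp ratio minus the Pfkm ratio by 0.31 (exact permutation p = 0.048; adjusted p = 0.095). Pfkm was lowest in injured 4, the array with the highest muscle marker mean. Without injured 2 and injured 4 its difference was -0.28 and no longer called (adjusted p = 0.086).

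From aldolase to pyruvate kinase, 1 of 10 measured genes was called, and it was higher. That is 10%, beside 11.4% of all genes called higher and 25.4% called in either direction. Pgk1 encodes phosphoglycerate kinase, the first ATP-yielding enzyme of the pathway. It measured -1.61, -1.68, -1.65 and -1.57 on uninjured arrays and -1.31, -1.34, -1.39, -1.25 and -1.36 on injured arrays. Every injured array was higher, by 0.30 on average (SE 0.054, 1.23-fold; limma's adjusted p = 0.0026), and a second Pgk1 probe gave 0.33. Two-sided exact permutation tests of single genes gave 0.0079 for Eno1 and 0.024 for Pgam1, whose arrays did not overlap either, but their differences of 0.10 (SE 0.048) and 0.09 (SE 0.052) were not called by limma (adjusted p = 0.15 and 0.26). Eno1 encodes the widely expressed enolase and Pgam1 the widely expressed phosphoglycerate mutase. Eno2, the neuronal enolase, differed by -0.02 (SE 0.096; adjusted p = 0.90). Aldoa, the widely expressed aldolase, differed by 0.07 (SE 0.067) and Tpi1, the triose phosphate isomerase, by 0.07 (SE 0.071). Aldoc, the aldolase of brain and glia, was between 1.76 and 1.84 on 4 injured arrays, below all uninjured arrays (1.93 to 2.09), but 2.29 on injured 5, and its difference of -0.12 was not called (adjusted p = 0.44). Pkm, pyruvate kinase of muscle and most other adult tissues, varied most within the uninjured group, from -1.47 to -0.72, and its difference of 0.22 carried an SE of 0.246. It moved to 0.03 without injured 5 and to 0.38 without uninjured 2, and was 0.70 within the slide that held both groups, never called.

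The muscle isoforms of this stretch, Pgam2 and Eno3, were high on single arrays. Pgam2 measured -3.17, -3.08, -2.98 and -2.96 on uninjured arrays and -3.18, -1.89, -3.16, -0.66 and -2.62 on injured arrays. Injured 2 and injured 4 stood far above the rest, the 2 arrays on which the skeletal muscle markers were raised. Its difference of 0.74 (SE 0.443) was not called (adjusted p = 0.26) and was 0.06 without those 2 arrays. Eno3 measured -2.92, -2.82, -2.91 and -2.81 on uninjured arrays and -3.15, -2.76, -3.11, -1.77 and -2.79 on injured arrays, so that injured 4 alone stood apart. The difference of 0.15 (SE 0.238; adjusted p = 0.69) became -0.15 without injured 2 and injured 4. Of the 14 muscle markers tested none was called, and the myoglobin gene Mb was above background on 0 of 4 uninjured and 2 of 5 injured arrays. The part of muscle RNA in these values was not tested beyond leaving out the 2 arrays.

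**Figure D2:**
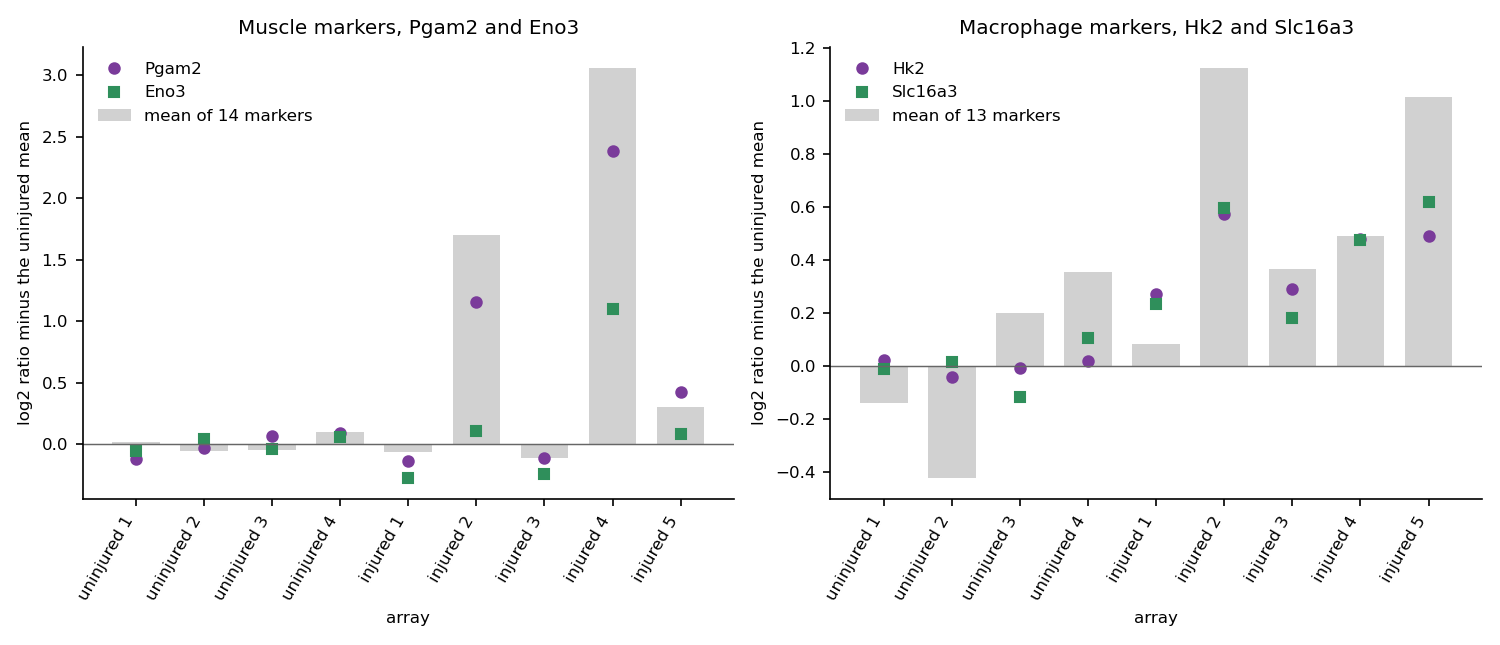
Log2 ratios minus the uninjured mean on each of the 9 arrays (horizontal axis). Grey bars show the mean of 14 skeletal muscle markers (left) or 13 macrophage markers (right), and symbols show Pgam2 and Eno3 (left) or Hk2 and Slc16a3 (right). Pgam2 is raised where the muscle bars are high, in injured 2 and injured 4, and Hk2 and Slc16a3 are lowest among injured arrays in injured 1 and injured 3, which also have the lowest macrophage bars.

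At the pyruvate and lactate step, both lactate carriers rose and neither dehydrogenase gene was called. Slc16a1 encodes MCT1, the carrier through which glia release lactate. It measured -1.04, -1.35, -0.88 and -0.78 on uninjured arrays and -0.62, -0.52, -0.58, -0.66 and -0.28 on injured arrays. The groups did not overlap, though uninjured 4 lay close to injured 4. The difference was 0.48 (SE 0.118, 1.39-fold; limma's adjusted p = 0.013). Its other probes gave 0.43, not called (limma's adjusted p = 0.060 over all probes), and 0.31 (adjusted p = 0.0066). Slc16a3 encodes MCT4, the low-affinity lactate exporter of highly glycolytic cells. It measured -3.49, -3.46, -3.59 and -3.37 on uninjured arrays and -3.25, -2.88, -3.30, -3.00 and -2.86 on injured arrays. Each injured array was higher than each uninjured array, by 0.42 on average (SE 0.102, 1.34-fold; limma's adjusted p = 0.012). The mean of 8 satellite glia markers, relative to the uninjured mean, was -0.13 to 0.12 on uninjured arrays. On injured arrays 1 to 5 it was -0.01, 0.17, 0.05, 0.12 and 0.40. It was highest on injured 5, which held the highest injured value for 16 of the 32 genes, Slc16a1 among them. The means of 8 endothelial markers (0.53) and 13 sensory neuron markers (0.10) were also the highest of the injured group there. The mean of 8 myelinating Schwann cell markers was the lowest of that group there (-0.13). Slc2a1 was highest on injured 2. Of the 8 endothelial markers, Tek alone was called, higher by 0.47, a share of 12.5% beside 11.4% of all genes. All 8 had differences above 0, as did 10513 of the 20898 genes. On uninjured 2, where Slc16a1 and Slc2a1 were lowest, the endothelial (-0.24) and Schwann cell (-0.43) means were the lowest of all arrays. Without uninjured 2 the Slc16a1 difference was 0.37, still called. What part glial or endothelial RNA had in the levels of Slc16a1 and Slc2a1 was not tested. The change of Slc16a3 minus that of Slc16a1 was -0.06 (exact permutation p = 0.71). Ldha, the dehydrogenase subunit that favours lactate formation, differed by -0.16 (SE 0.070; adjusted p = 0.12) and Ldhb, the subunit that favours lactate oxidation, by -0.15 (SE 0.106; adjusted p = 0.36). With the authors' processed values these differences were 0.20 and 0.08, so no direction is given for either gene. The Ldha ratio minus the Ldhb ratio changed by -0.01 (exact permutation p = 0.99).

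Hk2 and Slc16a3 are also expressed by activated macrophages, and markers of these cells moved on the same arrays. Of 13 macrophage markers, 3 rose (Aif1, Cd14 and Itgam), 23.1% beside 11.4% of all genes, and none of these 3 was called with slide as a block (limma's adjusted p = 0.12, 0.096 and 0.32). All 13 had differences above 0, as did 10513 of the 20898 genes, and all were above background on all arrays except Itgam, on 3 of 4 uninjured arrays. The mean of the 13 relative to the uninjured mean was -0.42 to 0.36 on uninjured arrays and 0.08, 1.13, 0.37, 0.49 and 1.02 on injured arrays 1 to 5. Injured 1 and injured 3 had the lowest Hk2 and Slc16a3 levels of the injured group and also the lowest macrophage means. On injured 1, where the macrophage mean lay within the uninjured range, Hk2 and Slc16a3 were still above every uninjured array. What part macrophage RNA had in these rises was not tested.

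The 4 pyruvate dehydrogenase kinases, which phosphorylate and so inactivate the pyruvate dehydrogenase complex, were not called higher in any case. Of the 4, 1 was called lower (25%, beside 14% of all genes). Pdk1, the kinase known as a hypoxia target, measured -0.51, -0.61, -0.55 and -0.58 on uninjured arrays and -0.97, -1.05, -0.91, -0.97 and -0.91 on injured arrays. The groups were well separated and each was tight. Pdk1 fell by 0.40 on the log2 scale (SE 0.054), to 75.8% of the uninjured level, with limma's adjusted p = 4.2e-04, and a second probe gave -0.25. Pdk2, the most widely expressed kinase, differed by -0.25 (SE 0.110; adjusted p = 0.12). Pdk3 differed by -0.15 (SE 0.074; adjusted p = 0.18), while its dimmer probe gave -0.19 with an adjusted p of 0.023 over all probes. Pdk4, the kinase raised by fasting, differed by 0.02 (SE 0.144; adjusted p = 0.94), with a wide spread of 0.78 to 1.49 among uninjured arrays. In the complex itself, Pdhb, the beta subunit of its first enzyme, measured 1.21, 1.17, 1.23 and 1.09 on uninjured arrays and 1.03, 0.96, 0.89, 0.84 and 0.84 on injured arrays. All injured arrays were below all uninjured arrays, and Pdhb fell by 0.26 (SE 0.061; limma's adjusted p = 0.0096), to 83.3% of the uninjured level, with -0.24 on a second probe. Without injured 2 and injured 4 the difference was -0.25 (adjusted p = 0.059). Pdha1, the alpha subunit of the same enzyme, differed by -0.19 (SE 0.115; adjusted p = 0.26) and was lowest on injured 5 (-0.07, beside 0.28 to 0.53 on the other injured arrays).

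**Figure D3:**
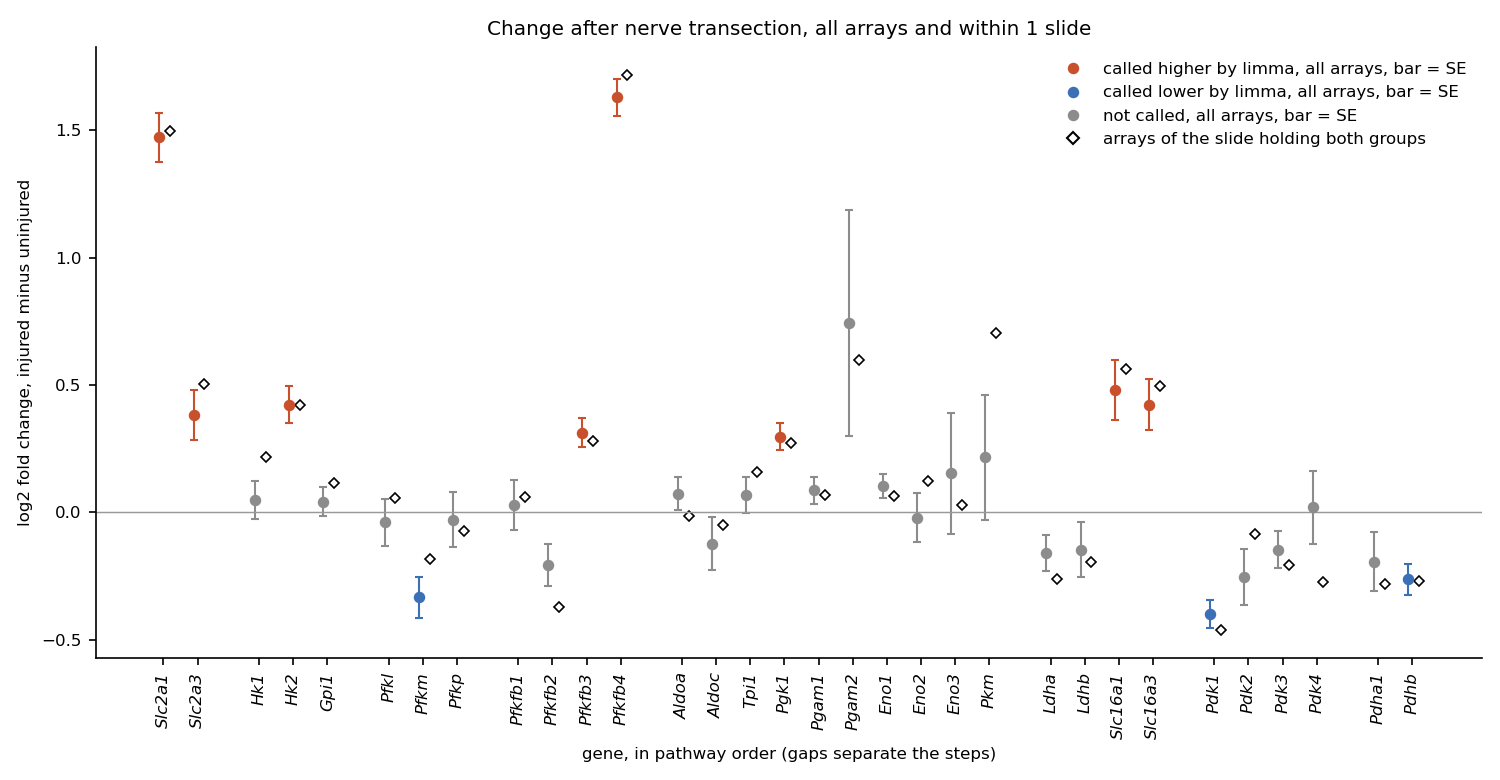
Log2 fold change, injured minus uninjured, for each of the 32 genes in pathway order. Filled circles with bars are the estimate over all 9 arrays and its SE, coloured by limma's call, and open diamonds are the estimate within the slide that held uninjured 1 and injured 1, 2 and 5. The diamonds of the 11 called genes have the sign of the circles, and Pfkm has the smallest diamond among them (-0.18).

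Only the second slide held both groups, so slide was tested as a block, which equals the comparison of uninjured 1 with injured 1, 2 and 5. A single uninjured array stands on one side of it, and its error is taken from the spread within groups on all slides, so its p-values assume that uninjured 1 varies like the other arrays. In that comparison Slc2a1 (1.497; limma's adjusted p = 0.0041), Pfkfb4 (1.72; adjusted p = 5.1e-04) and Pdk1 (-0.46; adjusted p = 0.040) were called. The 8 other called genes kept the sign of their difference but were not called: Slc2a3 (0.50), Hk2 (0.42), Pfkfb3 (0.28), Pgk1 (0.27), Slc16a1 (0.56), Slc16a3 (0.49), Pfkm (-0.18) and Pdhb (-0.27), with adjusted p between 0.12 and 0.50. Over all genes, 1160 of the 5310 calls stayed called with slide as a block, beside 3 of the 11 in the set. The scaling within arrays mattered as well. With median centring in place of loess, which moved the median of all genes to -0.05, Slc2a1, Slc2a3, Pfkfb4 and Slc16a3 were called higher and Pfkm, Ldhb and Pdk1 lower, and Pgk1 differed by 0.13. From the Cy5 channel alone Pgk1 differed by 0.15 and was not called (limma's adjusted p = 0.099). Without injured 2 and injured 4, the arrays with raised muscle markers, 6 genes were called higher and Pdk1 alone lower, and Slc2a3 (0.41; adjusted p = 0.060) and Slc16a3 (0.35; adjusted p = 0.083) were no longer called.

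Members of a family were also set against each other within each array, for 10 pairs. After adjustment over the 10 pairs by the Benjamini-Hochberg method none was under 0.05 in the exact permutation test, while 5 had an unadjusted p under 0.05: Slc2a1 with Slc2a3, Pfkfb3 with Pfkfb2, Pfkl with Pfkm, Hk2 with Hk1 and Pfkp with Pfkm. The change of Aldoc minus that of Aldoa was -0.20 (exact permutation p = 0.18), that of Eno1 minus Eno2 was 0.12 (exact permutation p = 0.26), and that of Pdk3 minus Pdk2 was 0.11 (exact permutation p = 0.42), ranging from 0.01 without uninjured 2 to 0.19 without uninjured 1. Without injured 5, 6 of the 10 pairs passed after adjustment. A p that misses the threshold does not show that family members changed alike.

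**Figure D4:**
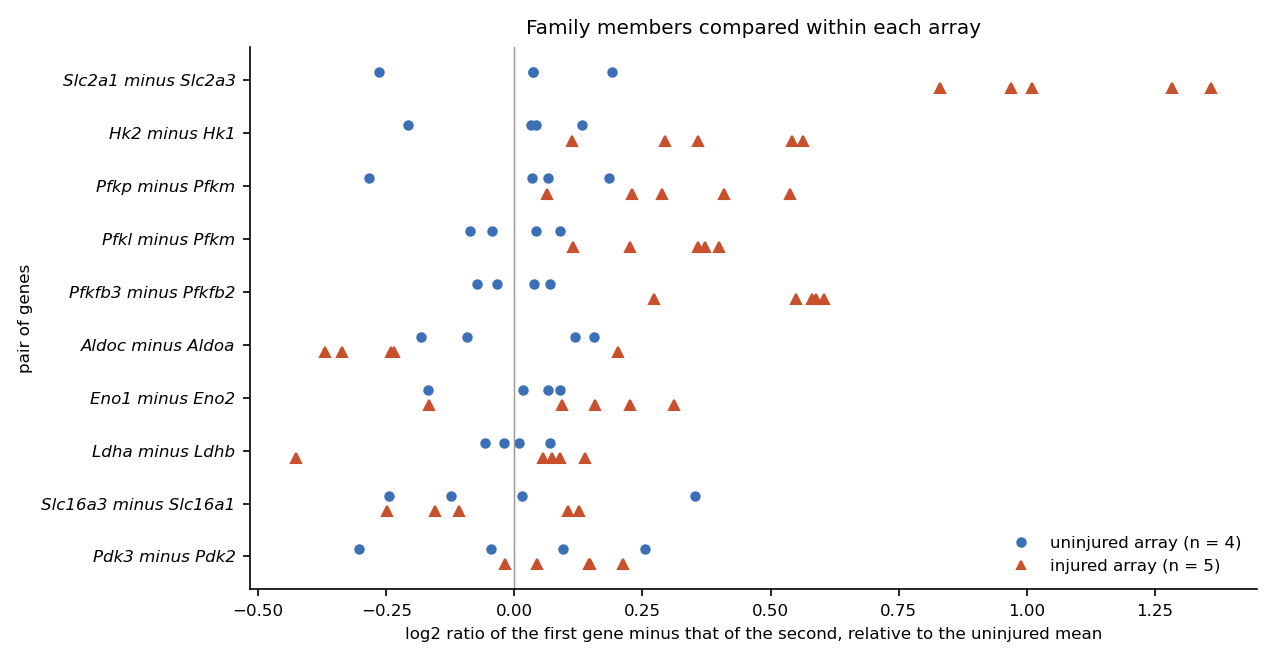
Difference between the log2 ratios of family members within each array, relative to its uninjured mean (horizontal axis), for 10 pairs of genes (vertical axis). Circles are uninjured arrays and triangles injured arrays. The 5 injured arrays of Slc2a1 minus Slc2a3, Pfkl minus Pfkm and Pfkfb3 minus Pfkfb2 lie to the right of all 4 uninjured arrays, whereas the groups overlap for Ldha minus Ldhb and Pdk3 minus Pdk2.

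Neighbouring pathways were read from lists of related genes in the same fit. With slide as a block, all 42 genes called on these lists kept their sign. Of the 42, 5 stayed called, among them Ankrd37, Esrrg, Prkab1 and Prkab2, beside 1160 of the 5310 genes called in all. None of the calls for the pentose phosphate, pyruvate entry, tricarboxylic acid cycle or gluconeogenesis lists did, and Esrra moved from -0.37 to -0.20. The pentose phosphate pathway, which branches from glucose 6-phosphate and yields NADPH and ribose, had 4 higher and 2 lower of 10 genes tested (40% and 20%, beside 11.4% and 14% of all genes), with a median log2 difference of 0.11. Taldo1, the transaldolase, rose by 0.69 (SE 0.077, 1.62-fold; limma's adjusted p = 1.2e-04), H6pd, the glucose 6-phosphate dehydrogenase of the endoplasmic reticulum, by 0.53, G6pdx, its cytosolic counterpart at the entry of the branch, by 0.40, and Tkt, the transketolase, by 0.24. Tigar, a fructose bisphosphatase that opposes glycolysis, fell by 0.38, and Prps2, which makes the ribose donor for nucleotides, fell by 0.28. Among 14 other sugar transporters and isoforms, Adpgk, an ADP-dependent glucokinase, rose by 0.42.

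Of 17 genes for pyruvate entry and further monocarboxylate carriers, 1 rose and 6 fell (5.88% and 35.3%, beside 11.4% and 14% of all genes), with a median of -0.16. Pdpr, the regulatory subunit of the phosphatase that reactivates the pyruvate dehydrogenase complex, fell by 0.32 and Pdp1, its catalytic subunit, by 0.31. Dlat, the acetyltransferase of the complex, fell by 0.25 and Pdhx, which anchors a further enzyme of it, by 0.22. Slc16a6, a carrier of ketone bodies, rose by 0.38. The largest fall on this list was Slc16a12, a creatine transporter, to 49.6% of its uninjured level (-1.01, SE 0.187; limma's adjusted p = 0.0029). Mpc1 and Mpc2, the mitochondrial pyruvate carrier, differed by 0.19 and -0.11 and were not called, and Bsg, the chaperone that brings MCT1 and MCT4 to the membrane, differed by 0.00 (SE 0.062). Of 18 tricarboxylic acid cycle genes none rose and 5 fell, Idh3a by 0.43, Sdhd by 0.37, Sdha by 0.33, Suclg1 by 0.24 and Fh1 by 0.16, together 27.8% of the list beside 14% of all genes called lower.

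Of 18 glycogen genes, 1 rose and 5 fell (5.56% and 27.8%, beside 11.4% and 14% of all genes), with a median of -0.15: Ugp2, which makes UDP-glucose, fell by 0.42 and Gyg, the glycogen primer, by 0.41, while Pgm2 rose by 0.29. Of 6 gluconeogenic genes none rose and 2 fell (33.3%, beside 14% of all genes), Slc37a4, the glucose 6-phosphate carrier, by 0.44 and Fbp1, a fructose bisphosphatase, by 0.41.

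The lists of hypoxia response genes and of regulators of glycolytic genes each held calls in both directions. Of 17 hypoxia response genes 2 rose and 3 fell, shares of 11.8% and 17.6% beside 11.4% and 14% of all genes. P4ha2, a collagen prolyl hydroxylase, and Ero1a, an oxidase of the endoplasmic reticulum, rose by 0.32 and 0.30, whereas Ankrd37, Bnip3 and Higd1a fell by 0.50, 0.49 and 0.25. Hif1a itself differed by 0.02 (SE 0.088) and Vegfa by -0.14 (SE 0.079), neither called. Of 19 regulators of glycolytic genes, 3 rose and 6 fell, shares of 15.8% and 31.6%. Prkab1 and Prkab2, the regulatory beta subunits of AMP-activated kinase, rose by 0.59 and 0.56, and the transcription factor Myc by 0.54. Esrrg, a nuclear receptor of oxidative metabolism, fell by 1.22 on the log2 scale (SE 0.104; limma's adjusted p = 2.0e-05), its coactivator Ppargc1b by 0.51, and the related receptor Esrra by 0.37. Txnip, a glucose-induced inhibitor of glucose uptake, differed by 0.00 (SE 0.107).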

How the data were processed

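DRG RNA (Cy5) and a universal mouse reference (Cy3) were hybridised to Agilent whole mouse genome arrays (design 014868) and scanned, and the authors extracted spot values with Agilent Feature Extraction (10.5.1.1, per the file headers). The deposited scanner files hold mean and median background intensity per channel and Agilent's own log10 ratio of Cy5 over Cy3, and a deposited table holds the authors' processed log2 ratios, made with limma per the labels, with a median near 0 on each array and the same direction as the scanner values (correlation 0.999); their normalization is not given in the sources used here.

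From the intensities, with limma 3.58.1 in R 4.3.3, background was corrected by normexp (offset 50) on each array without control spots or spots marked non-uniform (2 to 26 left out per array), followed by loess within each array and the mean of repeated spots. Leaving such spots in pulled the fit off on injured 2 (slope against the authors' values 0.817, and 1.01 without them). Probes needed Cy5 well above background on 4 of 9 arrays, which 31186 of 41174 did, and the brightest probe stood for each gene. Probes were named through their accession (22951 probes), their symbol (6659) or an older symbol (3109), and otherwise kept the name in the file. The 4 uninjured and 5 injured arrays were compared with lmFit and eBayes. Single genes and 10 pairs of family members were also compared by two-sided exact permutation over arrays (126 splits, smallest p 0.00794). Slide was tried as a block. The fit was tested on simulated data with known changes. Every member is named, and from each list of related genes up to 3 of the largest called rises and falls were named, with others where their role in the pathway called for it. A few genes of those lists that the rule would name are not reported here. The gene set, the lists and the pairs were chosen with earlier results of these data known. Promoters came from RefSeq (GRCm38.p6). No sequence or coordinate of the probes' older build (mm7) is given.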

Additional observations from a re-analysis of the deposited data

Results flagged for a closer look

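For the 32 genes, 10 pairs and 10 marker lists, 104 groups of arrays were examined for an array that stood apart from its own group, and 10 held one, where chance gives about 1 in 20. On injured 5, Slc2a3 measured 2.49 where the nearest injured array measured 2.12, and Aldoc measured 2.29 where the nearest measured 1.84. On injured 3, Pfkfb2 measured 1.6 beside 1.39 on the nearest array, and Pfkfb3 measured 2.3 beside 2.37. On uninjured 2, Pfkfb3 measured 1.92 beside 2.09, and Pfkfb4 measured 1.35 beside 1.15. On injured 4, Eno3 measured -1.77 beside -2.76, on the array with the highest mean of skeletal muscle markers (3.06). In pairs, Ldha minus Ldhb measured -5.62 on injured 5 beside -5.13 on the nearest injured array, Aldoc minus Aldoa 1.47 on injured 5 beside 1.03, and Pfkfb3 minus Pfkfb2 0.71 on injured 3 beside 0.98. All values are log2 ratios of DRG over reference, or differences between 2 such ratios.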

How the results depend on the processing

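The 11 calls among the 32 genes kept their direction under every alternative tried, and Slc2a1, Pfkfb4 and Pdk1 stayed called under all of them. Adding the slide as a fixed block left 1185 genes called in all (5.67%), with 2 members higher and 1 lower. Of the 5310 genes called in the main fit 1160 stayed called, beside 3 of the 11 members. Median centring in place of loess left 2683 genes (12.8%), with 4 members higher and 3 lower. Leaving out injured 2 and injured 4 together left 3012 genes (14.4%), with 6 members higher and 1 lower. That alternative was chosen after the data were seen, because of the muscle markers of those 2 arrays. The muscle alternative used fewer arrays, and the slide alternative compared the groups within 1 slide. The cause of the drop in calls was not tested for any of these alternatives. Leaving out 1 array at a time gave 4027 to 5445 genes called, 7 to 8 members higher and 3 to 4 lower. Of the 10 pairs, 4 passed with an offset of 0 and 4 with median centring. With Agilent's own log ratio 5 passed, and 5 with the mean of a gene's probes. Leaving out 1 array gave 0 to 6, the 6 without injured 5. Fewer arrays allow fewer splits and so a larger smallest p, and these counts depend partly on that. No paired analysis was possible because neither animals nor numbered replicates are given for any sample. With slide as a random block the estimated correlation was negative (-0.21) and the genes called rose to 7420, so that fit says nothing about a slide effect. Calls were gained for Ldha (offset of 0, Cy5 alone), Ldhb (median centring), Pdk2 (random block), Pdk3 (mean of probes), Pfkfb2 (array weights) and, when 1 array was left out, Pfkfb2 and Aldoc, all lower.

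Signs turned only among genes and pairs that were not called, and the cause was not tested. With an offset of 0 the log2 differences were -0.064 for Aldoa, -0.0702 for Gpi1, -0.0184 for Hk1, -0.0231 for Pgam1 and -0.0382 for Tpi1. With median centring they were -0.12 for Aldoa, -0.13 for Gpi1, -0.0858 for Hk1, -0.0499 for Pdk4, -0.0454 for Pfkfb1, -0.0814 for Pgam1 and -0.0956 for Tpi1. From Cy5 alone they were -0.071 for Aldoa, -0.0598 for Gpi1, -0.13 for Hk1, -0.0847 for Pfkfb1, -0.045 for Pgam1, 0.0453 for Slc16a3 minus Slc16a1 and -0.13 for Tpi1. With the authors' processed values they were -0.0543 for Aldoa, 0.20 for Ldha, 0.13 for Ldha minus Ldhb and 0.0754 for Ldhb. Within the slide they were -0.0156 for Aldoa, 0.12 for Eno2, -0.27 for Pdk4 and 0.0566 for Pfkl. Without injured 2 and 4 they were 0.0279 for Eno2, -0.15 for Eno3, -0.0463 for Pdk4 and 0.00114 for Pfkp. With no spot left out they were -0.00808 for Gpi1 and -0.0356 for Pdk4, with array weights -0.0478 for Pdk4 and -0.015 for Pfkfb1, with Agilent's ratio 0.0361 for Ldha minus Ldhb and -0.0020 for Pdk4, and with the mean of probes 0.00792 for Ldha minus Ldhb and 0.0169 for Slc16a3 minus Slc16a1. Leaving out 1 array at a time, they ranged from -0.0905 to 0.0355 for Eno2, -0.0839 to 0.26 for Eno3, -0.12 to 0.12 for Pdk4, -0.0548 to 0.0846 for Pfkfb1, -0.11 to 0.0491 for Pfkp, -0.0523 to 0.0889 for Ldha minus Ldhb and -0.14 to 0.0614 for Slc16a3 minus Slc16a1.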

Other observations

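Injured 5 was the dimmest array, with a median Cy5 intensity of 156 and 71.0% of spots above background, and it held the highest injured value for 16 of the 32 genes, Slc2a3, Slc16a1, Slc16a3, Pfkfb4 and Tpi1 among them. Injured 3 held the lowest injured value for 14 of the 32. Among uninjured arrays, uninjured 2 held the highest value for 11 genes and the lowest for 14, so that Pkm, Hk1 and Pdk2 were highest and Slc16a1, Pdk4 and Ldha lowest on the same array. These counts describe single arrays, and their cause was not tested.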
